A study of Mus musculus with 8 samples.

Results

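The 10 genes described here encode proteins of the junctions and of the surface of endothelial cells, the cells that line blood vessels. They are Cdh5, Pecam1, Cldn5, Esam, Ocln, Tjp1, Jam2, Jam3, Emcn and Cd34, and they were taken by symbol from the 22520 genes of an RNA sequencing table. All 10 were in the table, and 9 of them passed the filter on low values that 11389 genes passed. The exception was Ocln.

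Messenger RNA was measured in microvascular endothelial cells that the labels describe as mixed from 3 organs, namely heart, liver and lung. The study reports its sequencing results for cells of the liver apart from cells of heart and lung, so the organ makeup of each library is uncertain. The mice were of the C57BL/6 strain and 14 days old. The series holds 4 libraries labelled LRP1 KO and 4 labelled Wildtype (WT), numbered 1 to 4 in each group, and the comparison asked which genes differ when the lipoprotein receptor LRP1 is lost from endothelial cells. According to the methods of the study, both groups carried floxed Lrp1 alleles, the LRP1 KO mice also carried an inducible Cre recombinase driven by the promoter of Cdh5, and the WT mice were littermates without Cre. The cells were selected with magnetic beads against PECAM-1, so the product of Pecam1 was the antigen used to collect them. Nothing states whether the 4 libraries of a group came from separate mice, so p-values measure the spread between these libraries, which may be technical.

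Endothelial cells hold on to each other through adherens junctions, where VE-cadherin (Cdh5) binds its like on the next cell and is anchored to actin by catenins, and through tight junctions, where claudins and occludin seal the gap between cells and scaffold proteins such as ZO-1 (Tjp1) tie them to the cytoskeleton. Immunoglobulin-type molecules (Pecam1, Esam, Jam2, Jam3) sit at the same contacts and take part in the passage of leukocytes. The sialomucins endomucin (Emcn) and CD34 (Cd34) coat the surface that faces the blood. Cdh5, Pecam1, Cldn5 and Emcn are largely restricted to endothelium, whereas Tjp1, Jam2, Jam3 and Cd34 are also made by other cells, including epithelial and mesenchymal ones.

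Values were read as FPKM, a unit inferred from the table, that is, sequenced fragments divided by transcript length and by the total mapped, which had been given nearly the same distribution in every library, so that sequencing depth is unknown. The sum of the columns ranged from 503571 to 504112. Lrp1 itself measured 112.7, 140.4, 103.2 and 124.2 FPKM in the WT group, in the order of the library numbers, against 3.447, 5.197, 2.789 and 7.718 FPKM in the LRP1 KO group. The LRP1 KO libraries thus kept 2.87%, 4.33%, 2.32% and 6.42% of the WT mean, with the most in library 4.

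The members fell into a set that was graded across the LRP1 KO libraries and a set that was flat. Emcn, Cdh5, Pecam1 and Cldn5 were between 1.99 and 3.72 times as high in the LRP1 KO mean as in the WT mean, but the excess came from LRP1 KO libraries 1, 2 and 3, and library 4 lay below every WT library. Esam followed the same order with a smaller difference. Tjp1, Jam2, Jam3 and Cd34 had ratios between 0.997 and 1.15. No member reached an adjusted p-value under 0.05 with all 8 libraries in limma's moderated test with group as the only term, where 13.6% of tested genes did in either direction and 6.27% did as higher in LRP1 KO. Of the 9 tested members, 4 had an unadjusted p-value under 0.05 (Cdh5, Pecam1, Esam and Emcn), and 33.7% of all tested genes did. The exact permutation test over libraries called none of the 10 either, with 0.0286 the smallest p-value that 4 against 4 libraries allow. Estimates were above 0 for all 9, with a median log2 difference of 0.475, and the median over all tested genes was -0.0091.

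**Figure D1:**
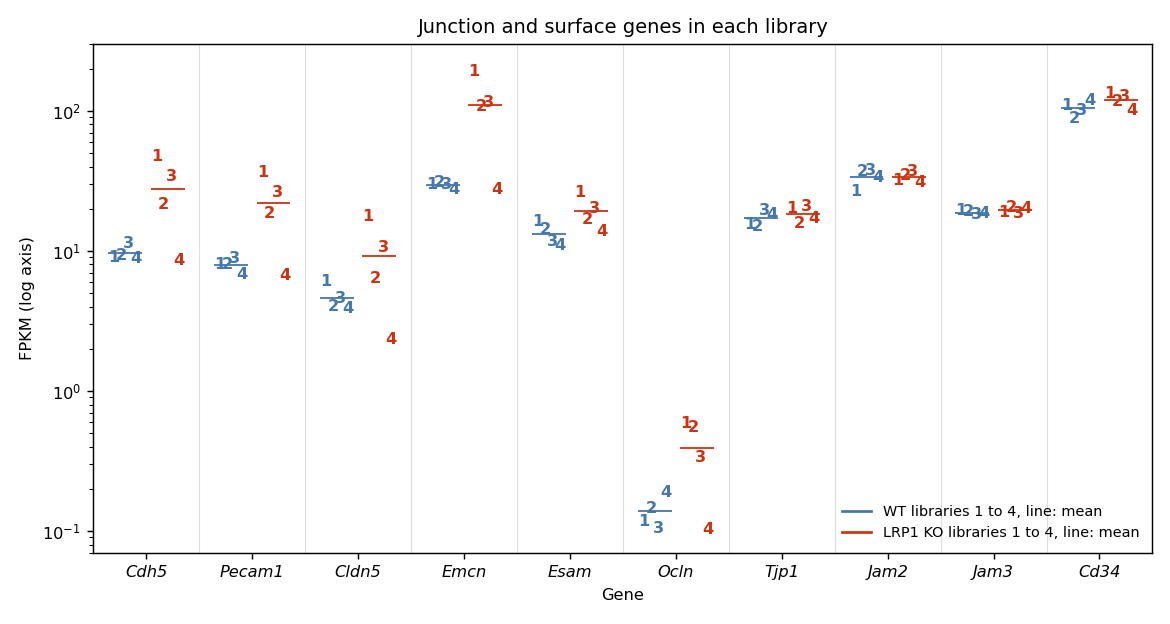
FPKM of each gene (log axis) in the 8 libraries, where a digit is the library number, blue is WT, red is LRP1 KO and the line is the mean of the group. For Cdh5, Pecam1, Cldn5 and Emcn the digits 1, 3 and 2 of LRP1 KO stand above all WT digits and the digit 4 stands below them, at 8.562, 6.718, 2.325 and 27.25 FPKM.

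Promoter windows of 300 bases (250 before and 50 after the annotated start) were found in RefSeq (GRCm38.p6) for 5 members. Those of Emcn and Cldn5, from the graded set, and of Cd34, from the flat set, are printed 5′ to 3′ on the strand of the gene. Cd34 kept the library order of the graded set at a far smaller amplitude. Capitals mark matches to CAGGAAG on either strand, a word bound by ETS transcription factors, which are active in endothelium. Emcn is at chr3:137340828-137341127 (plus strand), Cd34 at chr1:194938571-194938870 (plus strand) and Cldn5 at chr16:18776597-18776896 (plus strand).

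Emcn: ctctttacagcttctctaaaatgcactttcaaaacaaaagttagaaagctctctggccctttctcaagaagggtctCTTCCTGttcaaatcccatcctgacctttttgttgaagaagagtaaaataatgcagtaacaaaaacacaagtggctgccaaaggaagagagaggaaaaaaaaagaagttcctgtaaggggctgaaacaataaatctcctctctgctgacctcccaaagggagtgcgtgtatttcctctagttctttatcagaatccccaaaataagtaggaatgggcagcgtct

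Cd34: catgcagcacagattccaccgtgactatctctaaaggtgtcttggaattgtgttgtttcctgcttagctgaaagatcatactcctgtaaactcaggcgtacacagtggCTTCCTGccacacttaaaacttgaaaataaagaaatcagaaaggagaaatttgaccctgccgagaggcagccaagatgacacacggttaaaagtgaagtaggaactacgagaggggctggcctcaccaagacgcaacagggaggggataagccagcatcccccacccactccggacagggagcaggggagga

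Cldn5: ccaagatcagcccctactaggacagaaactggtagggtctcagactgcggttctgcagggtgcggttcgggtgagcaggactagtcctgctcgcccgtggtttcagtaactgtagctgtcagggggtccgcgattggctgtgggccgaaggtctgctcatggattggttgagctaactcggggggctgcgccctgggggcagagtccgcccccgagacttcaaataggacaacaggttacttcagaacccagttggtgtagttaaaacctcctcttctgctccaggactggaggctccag

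The word was read on the minus strand in both windows that held it, where it appears as CTTCCTG, beginning at position -174 from the start in Emcn and at position -142 in Cd34. The Cldn5 window, and those of Tjp1 and Ocln, held no match. It occurred in 13.3% of 32851 windows of the same length from 27025 genes. A further ETS-type word, CCGGAAG, is present in 8.86% of windows and was in no member window on either strand. The same held for the GATA word AGATAA, present in 11.2% of windows. No member window held the TATA word TATAAA either, which occurs in 13.6% of windows. No word searched overlaps another in these windows. The word CAGGAAG was thus present in a window of either set and absent from Cldn5, which is a description of letters and not of binding. The GC content was 41.0% in Emcn, 50% in Cd34 and 58.3% in Cldn5, beside a median of 52.7% over all windows.

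Cdh5 (ENSMUSG00000031871, chromosome 8, 104101625 to 104144511, plus strand, GRCm38) encodes VE-cadherin, the adhesive receptor of endothelial adherens junctions. WT libraries 1 to 4 held 8.976, 9.315, 11.21 and 8.871 FPKM, and LRP1 KO libraries 1 to 4 held 47.26, 21.49, 33.94 and 8.562 FPKM. LRP1 KO library 1 was thus at 493% of the WT mean, library 3 at 354%, library 2 at 224% and library 4 at 89.3%. The means were 9.592 ± 1.09 in WT and 27.81 ± 16.6 in LRP1 KO (SD, n = 4 each). On the log2(FPKM + 1) scale, used for all differences here and smaller than log ratios for low genes, the difference was 1.22 (SE 0.41, 95% confidence interval 0.29 to 2.15, adjusted p = 0.0767 by limma). The groups overlapped only through library 4. Cdh5 varied little among WT libraries (coefficient of variation 11.4%) and widely among LRP1 KO libraries (59.7%), where the median gene tested had 9.52% and 8.95%.

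Pecam1 (ENSMUSG00000020717, chromosome 11, 106654217 to 106750628, minus strand) encodes PECAM-1 or CD31, an adhesion molecule of the lateral border of endothelial cells that platelets and leukocytes also carry. Its values were 7.961, 8.046, 8.763 and 6.802 FPKM in WT and 36.33, 18.45, 26.24 and 6.718 FPKM in LRP1 KO. The LRP1 KO libraries kept the order seen for Cdh5, at 460%, 234%, 332% and 85.1% of the WT mean for libraries 1 to 4. Mean values were 7.893 ± 0.812 and 21.94 ± 12.5 FPKM (SD, n = 4 each), and the log2 difference was 1.16 (SE 0.40, interval 0.26 to 2.06, adjusted p = 0.0814). Pecam1 stood in a nearly fixed ratio to Cdh5 within each library, from 0.767 to 0.887 in WT and from 0.769 to 0.859 in LRP1 KO. Over the 8 libraries their log2 values had r = 0.997, which is a description of points that share libraries and group.

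Emcn (ENSMUSG00000054690, chromosome 3, 137341067 to 137432185, plus strand) encodes endomucin, a sialomucin of capillary and venous endothelium that hinders leukocyte adhesion. Its WT values lay close together at 29.97, 30.79, 29.8 and 27.45 FPKM, and the LRP1 KO values were 190.4, 107.1, 114.6 and 27.25 FPKM. Libraries 1 to 4 of LRP1 KO stood at 645%, 363%, 388% and 92.4% of the WT mean. Of the 9 tested members it had the largest difference, 1.57 on the log2 scale (SE 0.48, interval 0.50 to 2.64), and its adjusted p = 0.0560 was the lowest of the 9. The ratio of Emcn to Cdh5 was 2.66 to 3.34 in WT and 4.03, 4.99, 3.38 and 3.18 in LRP1 KO libraries 1 to 4. Emcn was thus higher per unit of Cdh5 than in any WT library in LRP1 KO libraries 1, 2 and 3, and within the WT range in library 4.

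Cldn5 (ENSMUSG00000041378, chromosome 16, 18776847 to 18778262, plus strand) encodes claudin-5, the main claudin of endothelial tight junctions. It measured 6.068, 4.031, 4.582 and 3.85 FPKM in WT and 17.58, 6.354, 10.66 and 2.325 FPKM in LRP1 KO. LRP1 KO libraries 1 to 4 were at 380%, 137%, 230% and 50.2% of the WT mean, so library 4 was farther below WT for Cldn5 than for the other members. The spread among LRP1 KO libraries, a coefficient of variation of 70.7%, was the widest of the members, and the highest library was 7.56 times the lowest. The log2 difference was 0.62 (SE 0.44) with an interval from -0.37 to 1.60 that includes 0 (adjusted p = 0.349). Relative to Cdh5, Cldn5 was 0.409 to 0.676 in WT and 0.272 to 0.372 in LRP1 KO, with every LRP1 KO library below every WT library, a ratio that was not tested.

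Esam (ENSMUSG00000001946, chromosome 9, 37528078 to 37538319, plus strand) encodes an adhesion molecule of endothelial tight junctions and platelets. WT libraries held 16.23, 14.24, 11.72 and 10.89 FPKM and LRP1 KO libraries 26.07, 16.8, 19.95 and 13.68 FPKM. The order of the LRP1 KO libraries was again 1, 3, 2 and 4, but the range was narrower, from 103% to 196% of the WT mean, and library 4 lay inside the WT range. The difference of 0.47 (SE 0.19, interval 0.06 to 0.89) had an adjusted p of 0.108 in the fit with group as the only term. Per unit of Cdh5, Esam was 1.05 to 1.81 in WT and 0.552, 0.782, 0.588 and 1.6 in LRP1 KO libraries 1 to 4, so in libraries 1, 2 and 3 it was lower per unit of Cdh5 than in any WT library.

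Ocln (ENSMUSG00000021638, chromosome 13, 100496507 to 100552718, minus strand) encodes occludin, a membrane protein of tight junctions that is abundant in epithelia and in the endothelium of the brain. It was the lowest member, at 0.1173, 0.1442, 0.1045 and 0.1899 FPKM in WT and 0.5825, 0.5495, 0.3331 and 0.102 FPKM in LRP1 KO. LRP1 KO libraries 1, 2 and 3 were above all WT libraries and library 4 was below them. Because every value was under 1 FPKM, Ocln was not tested across genes, and the exact permutation test (two-sided, 4 against 4) gave p = 0.143 for a log2 difference of 0.28, or of 0.91 with a pseudocount of 0.1 in place of 1. With no filter on low values its adjusted p in limma was 0.154.

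The other scaffold and adhesion genes of the set differed little between groups. Tjp1 (ENSMUSG00000030516, chromosome 7, 65296165 to 65527781, minus strand), which encodes the tight junction scaffold ZO-1, was 15.39, 15.05, 19.47 and 18.31 FPKM in WT and 20.22, 15.79, 20.63 and 17.09 FPKM in LRP1 KO. The difference of 0.11 (SE 0.11) had an interval corresponding to a fold between 0.907 and 1.28 (adjusted p = 0.528). The groups overlapped widely, and the spread among LRP1 KO libraries, 12.8%, was that among WT libraries, 12.7%, in contrast to the graded genes.

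Jam2 (ENSMUSG00000053062, chromosome 16, 84774123 to 84825928, plus strand) and Jam3 (ENSMUSG00000031990, chromosome 9, 27097384 to 27155421, minus strand) encode JAM-B and JAM-C, which bind each other across cell contacts. Jam2 was 26.41, 37.16, 37.28 and 33.64 FPKM in WT and 31.64, 34.55, 37.13 and 30.83 FPKM in LRP1 KO, so that all LRP1 KO values lay inside the WT range. Jam3 was 19.29, 19.12, 18.33 and 18.42 FPKM in WT and 18.81, 20.46, 18.58 and 20 FPKM in LRP1 KO. The intervals allow a fold of 0.844 to 1.19 for Jam2 (adjusted p = 0.978) and of 0.95 to 1.12 for Jam3 (adjusted p = 0.567), so changes of the size seen for Emcn lie outside them. Of the 3200 exonic bases of Jam3, 36.2% are shared with the antisense gene Gm48796, and whether strand was used in counting is not stated, so reads of the pair cannot be told apart.

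Cd34 (ENSMUSG00000016494, chromosome 1, 194938819 to 194961279, plus strand) encodes a sialomucin of small vessels that hematopoietic progenitors and fibroblast-like cells also carry. It was the most abundant member, at 109.6, 88.12, 100.3 and 117.6 FPKM in WT and 133.7, 116.2, 127.2 and 101.3 FPKM in LRP1 KO. The LRP1 KO libraries kept the order 1, 3, 2 and 4 at a far smaller amplitude, from 97.5% to 129% of the WT mean. The difference was 0.20 (SE 0.11, interval -0.04 to 0.44, adjusted p = 0.215). An antisense gene, Gm16897, shares 2.03% of its 7290 exonic bases.

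**Figure D2:**
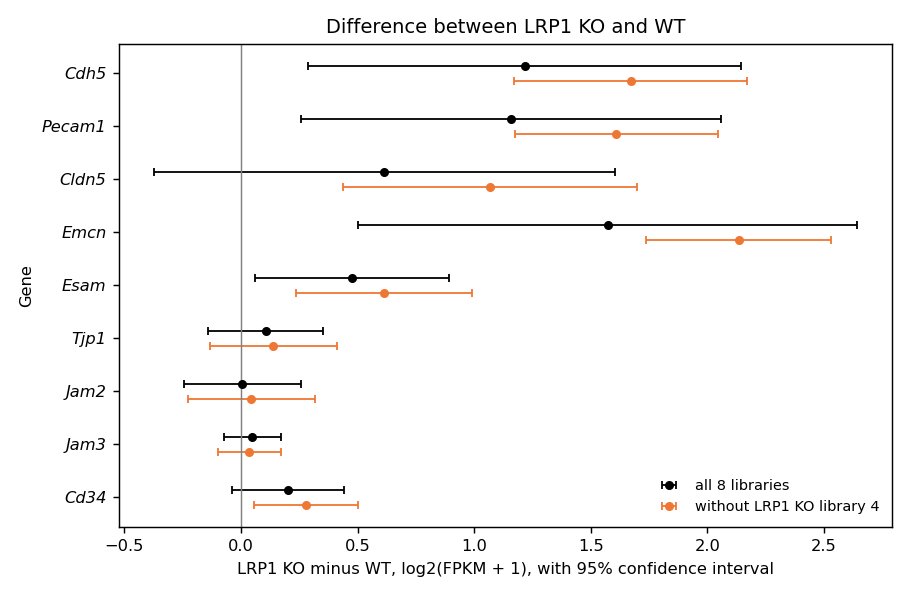
Difference between LRP1 KO and WT in log2(FPKM + 1) for the 9 tested genes, with 95% confidence intervals, from all 8 libraries (black) and without LRP1 KO library 4 (orange). Without that library the estimates for Emcn and Cldn5 moved from 1.57 to 2.13 and from 0.62 to 1.07, while Tjp1, Jam2 and Jam3 stayed near 0.

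The LRP1 KO libraries are best read separately. Library 1 was the highest LRP1 KO library for 7 of the 10 members and library 4 the lowest for 8. Across all tested genes, library 1 was the highest in 22.9% and library 4 the lowest in 32.1%. The full order 1, 3, 2, 4 held for 6 members (Cdh5, Pecam1, Cldn5, Esam, Emcn and Cd34) and for 8.63% of tested genes. Exactly 3 LRP1 KO libraries were above the highest WT library for Cdh5, Pecam1, Cldn5, Esam, Emcn and Ocln, a pattern that 11.7% of tested genes showed. No member had all LRP1 KO libraries on the same side of all WT libraries, and 19.6% of tested genes did.

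Without LRP1 KO library 4, 5 members passed the threshold as higher in LRP1 KO, in a fit where 26.5% of tested genes passed in either direction and 12.6% passed as higher. These were Emcn (2.13, SE 0.17), Cdh5 (1.67, SE 0.22), Pecam1 (1.61, SE 0.19), Cldn5 (1.07, SE 0.28) and Esam (0.61, SE 0.17), beside 0.28 for Cd34, 0.14 for Tjp1, 0.043 for Jam2 and 0.035 for Jam3. Library 4 was singled out because of its low Cdh5 level, which the genes that vary with Cdh5 share, so these values are a description and no test of a difference. Without LRP1 KO library 1, the differences of Emcn, Cdh5, Pecam1, Esam and Cldn5 shrank to 1.21, 0.89, 0.85, 0.32 and 0.24, and none passed. In the fit with group as the only term, members were called only where library 4 was left out. It was the LRP1 KO library with the lowest Cdh5 and also the one with the most remaining Lrp1. The part of either feature in the result was not tested.

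In the order of their levels per length of transcript, WT cells had Cd34 first at a mean of 103.9 FPKM, followed by Jam2 (33.6), Emcn (29.5), Jam3 (18.8), Tjp1 (17.1), Esam (13.3), Cdh5 (9.59), Pecam1 (7.89), Cldn5 (4.63) and Ocln (0.139). Neighbours in that order whose ranges overlapped were Jam2 with Emcn, Jam3 with Tjp1, Tjp1 with Esam and Esam with Cdh5. VE-cadherin and PECAM-1 transcripts were thus in the lower part of the WT libraries, with 43.8% and 38.2% of tested genes below them, and Cd34 had 93.3% below it. In the LRP1 KO means Emcn moved to the second place at 109.8 FPKM and Cdh5 and Pecam1 to the fourth and the fifth, with 93.7%, 74.3% and 68.3% of tested genes below. The ranges of all neighbours overlapped there except those of Cldn5 and Ocln.

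Genes with the most similar profile over the 8 libraries were found by Pearson correlation of log2(FPKM + 1), a description in which the points share group and library. The 3 most like Cdh5 were S1pr1, which encodes a sphingosine 1-phosphate receptor (r = 0.997), Gpr116 (0.996) and Flt4, a VEGF receptor (0.994). For Pecam1 they were the ETS factor Erg (0.995), S1pr1 (0.994) and the receptor Tie1 (0.993), and for Emcn they were Parvb (0.997), Erg (0.996) and Mmrn2 (0.996). Cldn5 was closest to Hoxd9 (0.996), Fgd5 (0.988) and Fam174b (0.983), and Esam to Smad6 (0.986), Icam2 (0.978) and Pgf (0.978). Among the 50 most similar genes, 6 for Cdh5, 7 for Pecam1, 5 for Cldn5 and 6 for Emcn were on a list of 20 other endothelial genes, against 1 for Esam.

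The flat members had other company. Tjp1 was most like Rictor, Abl2 and Nbeal1 (each r = 0.983), Jam2 most like Sf1 (0.955), Dpp7 (0.952) and Zbtb7a (0.941), Jam3 most like Unc93b1 (0.971), Med4 (0.959) and Pla2g15 (0.942), and Cd34 had r = 0.979 with each of Crct1 and S100a4. Among their 50 most similar genes, 0 were on the endothelial list. Between members, Cdh5 had r of 0.981 with Emcn, 0.917 with Cldn5, 0.873 with Esam and 0.778 with Cd34, but 0.598 with Tjp1, 0.196 with Jam2 and -0.084 with Jam3.

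A list of 20 other endothelial genes, none of them a member, asked whether the members moved by another amount than endothelial transcripts in general. Of these, 16 were tested, 15 had an estimate above 0, 3 were called higher (Ecscr, Cd93 and Eng, named here after their values were seen) and the median difference was 0.80. Over all tested genes 6.27% were called higher. The mean log2 level of the 16 was 2.56, 2.557, 2.612 and 2.451 in WT libraries 1 to 4 and 3.826, 3.254, 3.464 and 2.505 in LRP1 KO libraries 1 to 4, which is the order of the graded members. In bulk RNA, a change in the number of endothelial cells and a change in RNA per endothelial cell cannot be told apart.

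Measured against that level in the same library, Emcn was 2.33 to 2.43 log2 units above it in WT and 3.75, 3.50, 3.39 and 2.32 above it in LRP1 KO libraries 1 to 4. The mean relative difference was 0.86 for Emcn, 0.50 for Cdh5 and 0.44 for Pecam1, each with an exact permutation p = 0.143. With a pseudocount of 0.1 in place of 1 these were 0.75, 0.43 and 0.38, so their size depends on the number added. Cldn5 (-0.10, exact p = 0.743) and Esam (-0.24, exact p = 0.171) had relative differences below 0 that were smaller in size. Jam2 (-0.71, exact p = 0.0571), Jam3 (-0.67, exact p = 0.143), Tjp1 (-0.61, exact p = 0.0857) and Cd34 (-0.52, exact p = 0.0857) had lower estimates relative to it. For Ocln the relative difference was -0.44 (exact p = 0.0857) with a pseudocount of 1 and 0.056 with a pseudocount of 0.1, so its direction depends on the number added to values under 1 FPKM. None of the 10 relative differences had an exact p-value under 0.05. With 4 libraries against 4 such a value, 0.0286, is possible only where the groups do not overlap, so the test says little about differences of this size.

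**Figure D3:**
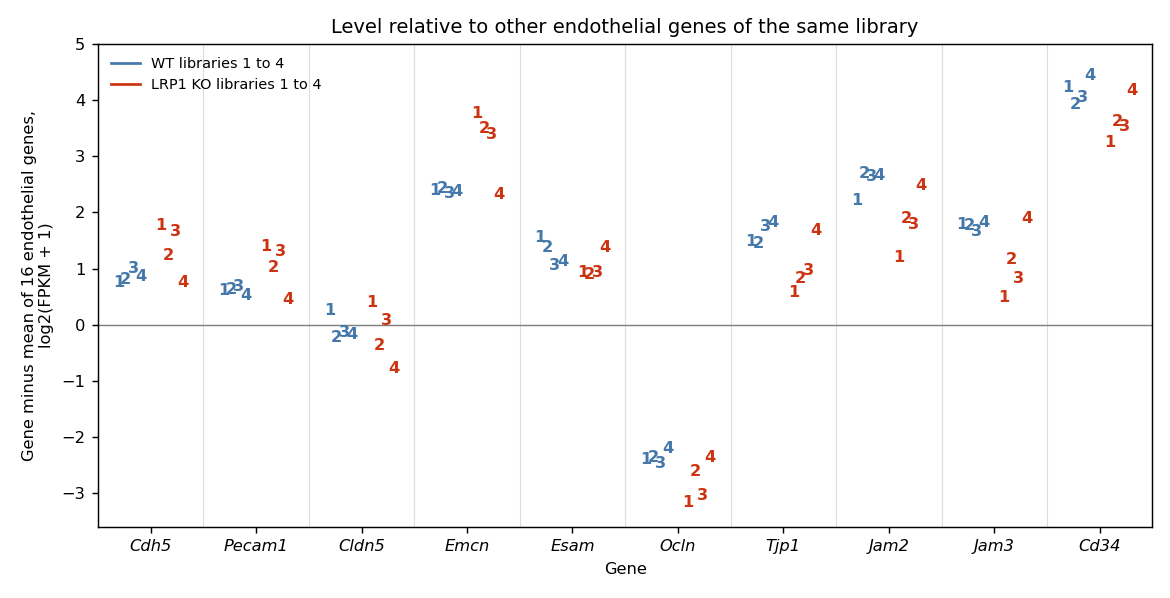
Level of each gene minus the mean of 16 other endothelial genes of the same library, in log2(FPKM + 1), with digits for the library number (blue WT, red LRP1 KO). For Emcn the digits 1, 2 and 3 of LRP1 KO stand at 3.39 to 3.75, above the WT digits at 2.33 to 2.43, while for Jam2, Jam3, Tjp1 and Cd34 the same 3 libraries stand below all WT digits and library 4 is near them.

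The partners of these proteins were read from lists of other junction and surface genes. Of 20 adherens junction partners (catenins, nectins, other cadherins and actin-linked proteins), 19 were tested, 4 were higher, 0 were lower and the median difference was 0.11. Over all tested genes 6.27% were higher and 13.6% were called in either direction. Cdh2, which encodes N-cadherin, the other classical cadherin of endothelium and one also made by mural cells and fibroblasts, was 72.68 to 87.11 FPKM in WT and 129.1, 108.0, 119.7 and 91.63 FPKM in the numbered LRP1 KO libraries. The groups did not overlap, with a difference of 0.47 (SE 0.10, adjusted p = 0.0227). The other 3 were Nectin1 (0.32, adjusted p = 0.0332) and Nectin3 (0.42, adjusted p = 0.0460), which encode nectins, and Heg1 (0.37, adjusted p = 0.0475), which encodes a membrane receptor that holds the KRIT1 complex at endothelial junctions. The most abundant partners, Zyx (0.17, adjusted p = 0.156) and the β-catenin gene Ctnnb1 (0.11, adjusted p = 0.178), did not pass.

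Of 22 tight junction partners, 16 were tested, 0 were higher and 2 were lower, with a median of -0.068. The share called over all tested genes was 13.6%, so this count is near the background. Cldn15, a pore-forming claudin best known from intestine, was 35.5 to 47.38 FPKM in WT and 13.24, 17.77, 20 and 23.05 FPKM in the LRP1 KO group. It fell in all LRP1 KO libraries, by 1.15 on the log2 scale (SE 0.15, adjusted p = 0.00300), with the lowest value in library 1. Patj, a polarity scaffold, fell by 0.44 (SE 0.10, adjusted p = 0.0211). F11r, which encodes JAM-A and was the most abundant partner had a difference of -0.25 (adjusted p = 0.0769).

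Of 6 connexin genes, 3 were tested and 1 was higher, where 6.27% of all tested genes were higher. Gja4, which encodes connexin 37 of arterial endothelium, was 1.386 to 2.482 FPKM in WT and 4.997, 7.161, 3.42 and 2.802 FPKM in the LRP1 KO group, a difference of 0.97 (SE 0.23, adjusted p = 0.0279). Gja1 (-0.39, adjusted p = 0.0659) and Gjc1 (-0.10, adjusted p = 0.435) were the most abundant connexins and did not pass.

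Of 24 other endothelial surface proteins, 22 were tested, 8 were higher and 0 were lower, where 6.27% of all tested genes were higher, and the median was 0.475. Cd36, a fatty acid receptor of capillaries and macrophages, was called at 2.17 (adjusted p = 0.000389), with LRP1 KO libraries at 9.455, 12.51, 8.379 and 7.013 FPKM and WT at 0.7646 to 1.56. Cd93, a receptor of endothelium and myeloid cells, was 1.418 to 1.705 FPKM in WT and 8.248, 5.488, 5.963 and 3.292 FPKM in LRP1 KO (1.37, adjusted p = 0.00448). Library 4 was the lowest LRP1 KO library for either gene, but unlike for the graded members it stood above all WT libraries. Thrombomodulin (Thbd, 0.49, adjusted p = 0.00482), Mcam (1.29, adjusted p = 0.0150), Cd47 (0.37, adjusted p = 0.0279) and endoglin (Eng, 0.94, adjusted p = 0.0279) were also higher. Caveolin-1 (Cav1, 0.74, adjusted p = 0.0694) and Cd151 (0.03, adjusted p = 0.706), the most abundant of the list, did not pass.

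Markers of other cell types were read in the same libraries, because the members differ in how far they are restricted to endothelium. The summed FPKM of the 20 endothelial genes was 154.2 to 164 in WT and 451.6, 303.1, 354.9 and 159.9 in LRP1 KO libraries 1 to 4. Fibroblast markers (11 genes, led by Col1a2) summed to 2944 to 4179 in WT. In LRP1 KO libraries 1 to 4 they summed to 2665, 3410, 3255 and 3885, the reverse of the order of the graded members. Of the 11 genes, library 1 was the lowest LRP1 KO library for 10 and library 4 the highest for 9. Epithelial and mesothelial markers (12 genes, led by Msln) summed to 1619 to 1951 in WT and 1341 to 1514 in LRP1 KO. Although these lists are shorter, their sums were above the endothelial sum in every library, so the libraries labelled as endothelial held abundant transcripts that mark other cell types. Of the tested fibroblast genes 1 was called higher and 3 lower, and of 8 tested epithelial and mesothelial genes 0 were called higher and 3 lower. Beside these and the marker counts below, 6.27% of all tested genes were called higher and 13.6% in either direction.

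Mural cell markers (10 genes, led by Acta2) summed to 667.2 to 832.7 in WT. In LRP1 KO libraries 1 to 4 they summed to 1617, 1363, 1539 and 1033, the order of the graded members. Among 7 tested genes 3 were called higher, where 6.27% of all tested genes were. Most of the mural sum came from the contractile genes Acta2 and Tagln. Gene by gene the 10 did not share an order, since library 4 was the lowest LRP1 KO library for 4 of them and the highest for 4, and library 1 was the highest for 4 and the lowest for 5. Macrophage markers (14 genes, led by Lyz2) summed to 107.6 to 132.8 in WT. In LRP1 KO libraries 1 to 4 the sums were 425.6, 626.6, 268.3 and 566.2, highest in libraries 2 and 4. Of 13 tested genes 10 were called higher, where 6.27% of all tested genes were. Only 11 of the 14 had a WT mean of at least 1 FPKM. A gene under 1 FPKM in every WT library passed the filter only through LRP1 KO, so it could be tested only where LRP1 KO was high. Leukocyte markers (10 genes, led by Arhgdib) had 6 of 8 tested genes called higher, beside the same 6.27%. The same limit of the filter holds, since 5 of the 10 had a WT mean of at least 1 FPKM. The leukocyte sums, 191.6 to 230.9 and 189.3 to 223.2, were mostly Arhgdib. The other 9 genes alone, again summed after the values were seen, gave 5.854 to 9.308 in WT and 36.42, 46.89, 26.64 and 38.48 in LRP1 KO. Macrophages and other leukocytes also carry PECAM-1. Pecam1 was lowest in LRP1 KO library 4, where the macrophage sum was 566.2, and the macrophage sums of all 4 LRP1 KO libraries were above WT. The part of leukocytes in the level of Pecam1 was not tested.

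Platelet and megakaryocyte markers (8 genes, led by Pf4, with Ppbp at 0 in all libraries) summed to 1.995 to 2.547 FPKM in WT and 2.415 to 5.022 in LRP1 KO, and hepatocyte markers (6 genes, with Apoc3 at 0 in all libraries) to 0.6333 to 1.605 and 0.592 to 0.7437. Lymphatic endothelial markers (7 genes) summed to 219.6 to 272.1 and 220.4 to 278, most of it from Pdpn, with 0 of 4 tested genes called by limma, 1 at an unadjusted p-value under 0.05 and a median difference of 0.619. Without Pdpn, a sum formed after the values were seen, the other 6 lymphatic genes gave 19.1 to 33.28 in WT and 72.43, 32.67, 58.82 and 17.0 in LRP1 KO libraries 1 to 4, the order of the graded members. Cardiomyocyte markers (6 genes) summed to 100.7 to 154.9 and 87.38 to 121.9, with 0 of 2 tested genes called by limma and 1 at an unadjusted p-value under 0.05. Hematopoietic progenitor markers (7 genes, led by Ly6a) ranged from 141.9 to 206.1 and from 101.8 to 211.8. Among 3 tested genes 1 was called higher, where 6.27% of all tested genes were. The part of these cell types in the differences of the members was not tested.

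**Figure D4:**
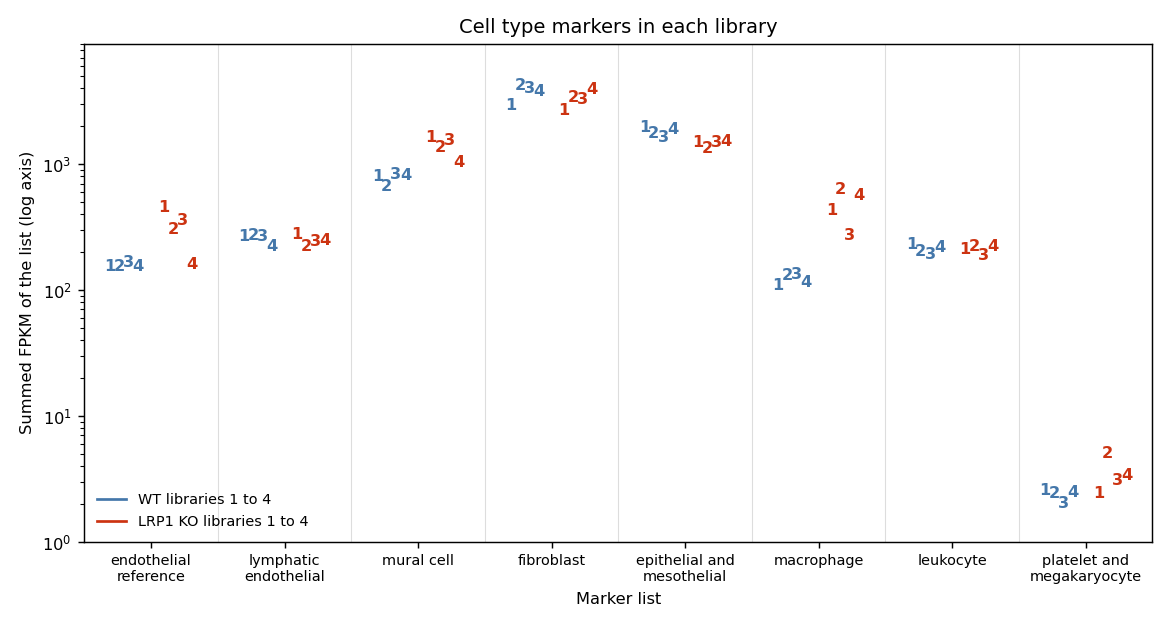
Summed FPKM (log axis) of 8 marker lists in each library, with digits for the library number (blue WT, red LRP1 KO). The endothelial and mural sums of LRP1 KO are highest in library 1 and lowest in library 4, whose endothelial sum of 159.9 is inside the WT range of 154.2 to 164, while the macrophage sums of LRP1 KO, 268.3 to 626.6, are all above WT.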

How the data were processed

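RNA was extracted from 4 WT and 4 LRP1 KO samples and sequenced. The labels call them mixtures of heart, liver and lung cells, whereas the results of the study are given for liver separately from heart and lung. The submitters' processing notes name TopHat2, Cufflinks and mm10, and the methods of the study describe trimGalore, STAR, featureCounts and GENCODE, so the route from reads to these values is uncertain. The authors deposited a table of 22520 genes that was read as FPKM. The unit was inferred, since the header does not name it, and quantile-normalized TPM is possible. The values showed that the deposited FPKM had been quantile normalized, which removes depth, hides a shift of all genes in 1 direction and leaves no counting error to compute.

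Genes with at least 1 FPKM in at least 4 libraries were fitted as log2(FPKM + 1) with limma 3.58.1 (R 4.3.3), with group as the only term, trended moderated variances and Benjamini-Hochberg adjustment over all tested genes, and called at an adjusted p under 0.05. The count test planned for a count table could not be used. Single values were compared with a two-sided exact permutation test (scipy 1.17.1, 70 ways to choose 4 of 8). The limma fit was checked on simulated data, and the permutation test on fixed groups of numbers. Gene positions came from GENCODE M21, which matched 21740 identifiers, and 6 list genes were found under an older symbol. Cd47 named 2 identifiers, and the row whose identifier GENCODE gives that symbol was used.

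The members and lists were chosen with earlier results of these data known. Named genes were the members and Lrp1, up to 6 called genes with the lowest adjusted p and the 2 most abundant genes of each pathway list, the 3 genes most like each member, and markers that were at 0 or led their list. Some genes that this rule covers are not reported here. The endothelial list shares genes with the surface and adherens lists. Alternatives were a pseudocount of 0.1, no filter, a filter of at least 1 FPKM in all 8 libraries, rescaling, variances without a trend, the replicate number as a block, and leaving out each library.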

Additional observations from a re-analysis of the deposited data

How the results depend on the processing

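The calls depended on single libraries. With all 8 libraries 1547 genes were called and 0 members, and leaving out 1 library at a time gave 512 to 3021 genes and 0 to 5 members. The count was 3021 and 5 without LRP1 KO library 4, and without each of the others it was 512 to 1008 genes and 0 members, with fewer libraries in the fit. With the replicate block 1013 genes and 1 member (Esam, 0.47, adjusted p = 0.0439) were called. Deviations of same-numbered libraries from their group means correlated at 0.158, 0.141, 0.34 and -0.312. These values were not set against pairs with different numbers, so the pairing was not established. Over the alternatives the adjusted p was 0.000333 to 0.143 for Emcn, 0.0014 to 0.189 for Cdh5, 0.000948 to 0.195 for Pecam1, 0.0227 to 0.71 for Cldn5 and 0.0265 to 0.24 for Esam, in each case lowest without LRP1 KO library 4, which was singled out for its Cdh5 level. The difference of Jam2, near 0, changed sign when single libraries were left out (-0.10 to 0.058, with -0.10, -0.00976 and -0.043 below 0). Tjp1 ranged from 0.051 to 0.17 and Cd34 from 0.13 to 0.28, and neither was called. Relative to the endothelial level, Cldn5 ranged from -0.29 to 0.10 (0.00689 without WT library 1, 0.10 without LRP1 KO library 4), and Ocln was 0.056 with a pseudocount of 0.1; the cause was not tested. Rescaling, the other filters and untrended variances called 0 members. Depth is unknown, so the counting error, which weighs most on low values such as those of Ocln, could not be computed.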
